A study of Arabidopsis thaliana with 12 samples.

Results

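AT1G68660, which encodes ClpS1, and TPP2 (AT4G20850), which encodes tripeptidyl peptidase II, are the 2 genes of protein breakdown described here, out of 692 probes that carry a single annotated gene on an array of 3439 probes. Each gene has 1 such probe, probe 4397 for AT1G68660 and probe 3245 for TPP2, and both were above 0 on all 12 arrays. The genes were chosen by name with their difference between the groups already known, so the values of that difference below are a description and carry no test. Total RNA came from wild-type Arabidopsis thaliana plants of ecotype Columbia 0. For 6 arrays the plants were kept on water for 4 h before a 4 h treatment with 25 mM ascorbate (pH 5.5). For the other 6 arrays 2 µM staurosporine took the place of water, for the same 4 h, before that ascorbate treatment. Staurosporine inhibits a broad range of protein kinases, and the contrast asks which transcripts differ when it is given in place of water before ascorbate. Both groups received ascorbate, so no value is a response to ascorbate.

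ClpS1 is a small adaptor of the chloroplast Clp protease. It recognises certain substrates, among them glutamyl-tRNA reductase, the first committed enzyme of tetrapyrrole synthesis, and passes them to the ClpC chaperones, which unfold them into the proteolytic core. ClpF is a partner of ClpS1 in this step. TPP2 is a large serine peptidase of the subtilase family that removes tripeptides from the N-terminus of oligopeptides, such as those released by the proteasome, and it forms very large complexes.

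The deposited values are relative intensities without an absolute unit, and array medians ran from 0.252 to 0.486, with 10.3% to 15.2% of the probes of an array listed at 0. Arrays were quantile normalized, and "normalized intensity" means a value after that step. Replicates 1 and 2, 3 and 4, and 5 and 6 of a group, called number pairs here, were more alike (Spearman correlation over all probes 0.889 to 0.987) than other arrays of a group (0.825 to 0.917). The labels do not state whether arrays stand for separate plants, so errors and p-values describe the scatter of arrays, part of which may be technical. The labels give no tissue. Of 6 leaf mesophyll markers, PSAN, LHB1B2 and PRK had a single-gene probe, and all 3 were above 0 on all 12 arrays. So were 2584 of the 3439 probes, so this does not settle the tissue. No marker of root, phloem, myrosin cells, trichomes or seeds had a single-gene probe.

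AT1G68660 was higher after staurosporine on every array, by 4.36-fold in the fit over 12 arrays, while TPP2 was lower by 2.22-fold. The adaptor of the chloroplast protease and the peptidase thus had changes of opposite sign. After quantile normalization, all 6 same-numbered pairs of arrays went the same way in AT1G68660, and 5 of 6 did in TPP2. As deposited, all 6 did in AT1G68660 and 4 of 6 in TPP2. Of all tested probes, 30.8% had the same sign in all 6 after quantile normalization, and the share with 5 of 6 was not computed. Without staurosporine replicate 3 and without normalization, a setting chosen after the values were seen, the log2 change of TPP2 was -0.40 in place of -1.15, and that of AT1G68660 was 2.57 in place of 2.12.

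For AT1G68660, the deposited intensity after water was 0.104, 0.0738, 0.249, 0.0382, 0.0973 and 0.0740 in replicates 1 to 6. After staurosporine it was 0.513, 0.474, 0.370, 0.455, 0.649 and 0.599 in replicates 1 to 6. The lowest staurosporine array and the highest water array were both replicate 3, and the groups did not overlap. The normalized intensity was 0.131 ± 0.0841 (SD, n = 6) after water and 0.479 ± 0.0634 (SD, n = 6) after staurosporine. The groups did not overlap after normalization either, with water arrays from 0.0487 to 0.256 and staurosporine arrays from 0.403 to 0.577. Over the whole array, 14.9% of the 3330 probes above 0 on at least 1 array had groups that did not overlap, and 7% did so with staurosporine higher. In bulk RNA, fewer cells of a type and less RNA per cell cannot be told apart.

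For TPP2, the deposited intensity after water was 0.179, 0.184, 0.306, 0.242, 0.212 and 0.349 in replicates 1 to 6. After staurosporine it was 0.110, 0.120, 0.0201, 0.250, 0.217 and 0.265. On this scale the groups overlapped widely, and staurosporine replicate 3 was far below the other arrays of its group. The normalized intensity was 0.280 ± 0.0529 (SD, n = 6) after water and 0.140 ± 0.0787 (SD, n = 6) after staurosporine. The normalized water arrays ran from 0.188 to 0.327. Of the staurosporine arrays, replicate 4 lay among them at 0.283, and the other 5 ran from 0.0558 to 0.169, below every water array.

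**Figure D1:**
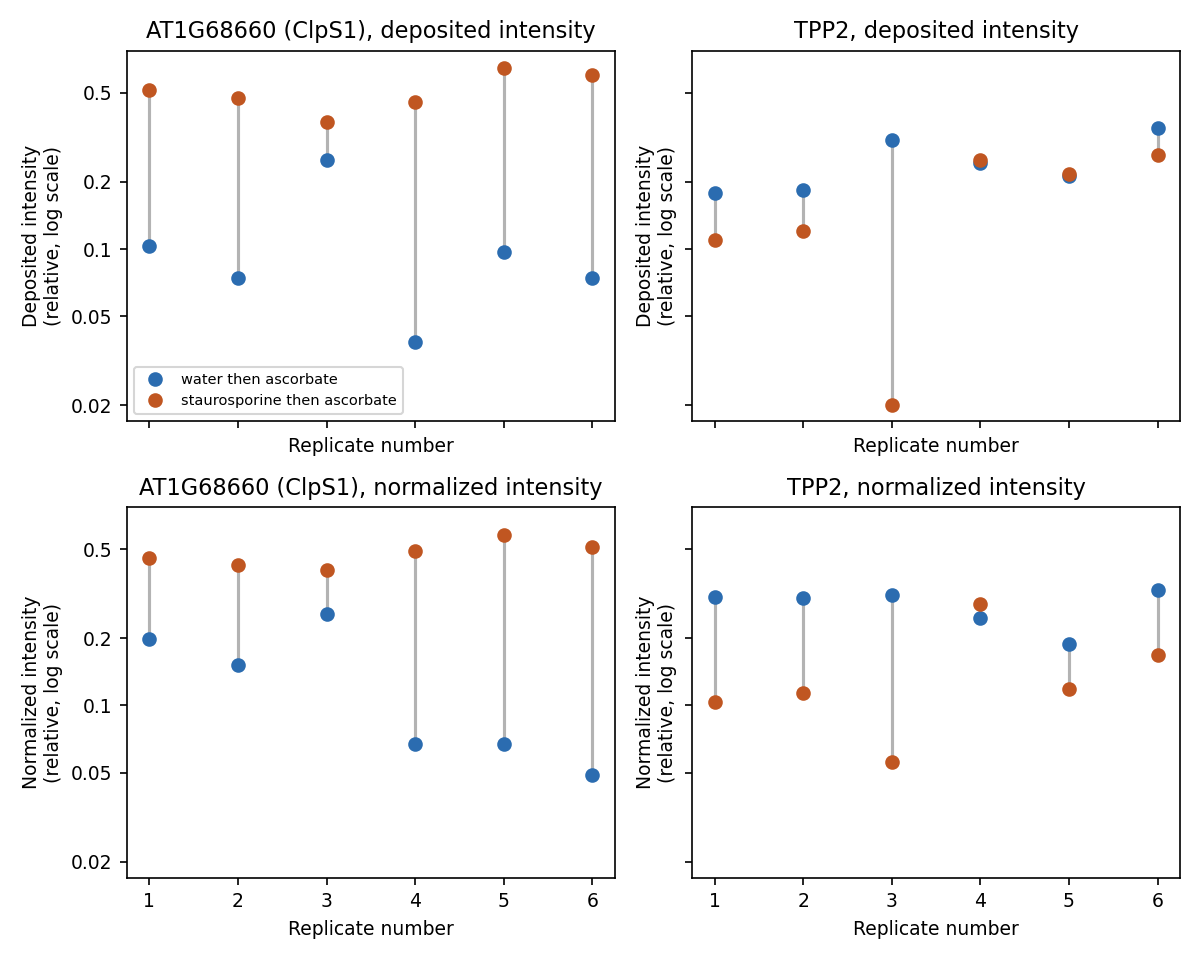
Intensity of AT1G68660 and TPP2 (relative units, log axis) on each of the 12 arrays by replicate number, as deposited (top) and after quantile normalization (bottom); grey lines join same-numbered arrays of the groups. AT1G68660 was higher after staurosporine at every number, and TPP2 was lower at numbers 1, 2, 3 and 6 on both scales.

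The fitted log2 change of AT1G68660, staurosporine minus water, was 2.12 ± 0.39 (SE, 12 arrays), and the SE was 0.44 with each number pair averaged to 1 sample. It was the third highest among the 673 single-gene probes above 0 on at least 1 array. The fitted log2 change of TPP2 was -1.15 ± 0.33 (SE, 12 arrays), and the SE was 0.17 with number pairs averaged. Averaging joins staurosporine replicates 3 and 4, at 0.0558 and 0.283, into 1 value, so the smaller SE leaves out the gap between them. The change of TPP2 ranked 30 among the same 673 probes counted from the lowest. The median absolute log2 change of those probes was 0.42.

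Taken by replicate number, the log2 difference of AT1G68660 in normalized intensity was 1.22, 1.48, 0.66, 2.88, 3.11 and 3.40 for numbers 1 to 6. The smallest was a 1.58-fold difference at number 3 and the largest a 10.6-fold difference at number 6. All 6 were above 0, as they were for 15.1% of all tested probes, and 30.8% of probes had the same sign in all 6. Averaged by number pair, the log2 change was 1.35 at numbers 1 and 2, 1.77 at 3 and 4, and 3.25 at 5 and 6. The staurosporine arrays differed little between number pairs, and the water arrays of numbers 5 and 6 were lower, at 0.0670 and 0.0487, than those of numbers 1 and 2, at 0.198 and 0.153. As deposited, those water arrays were nearly alike, at 0.0973 and 0.0740 against 0.104 and 0.0738, so the order of the number pairs depends on the scaling.

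For TPP2 the log2 difference was -1.56, -1.41, -2.49, 0.19, -0.67 and -0.96 for numbers 1 to 6. Only number 4 was above 0. Averaged by number pair, the log2 change was -1.48 at numbers 1 and 2, -1.15 at 3 and 4, and -0.81 at 5 and 6. In the deposited intensities the log2 difference was -0.70, -0.62, -3.93, 0.05, 0.03 and -0.40, so that numbers 4 and 5 differed by less than 0.1 and number 3 by the most. The median over the 6 numbers was -1.18 after quantile normalization, -0.88 with arrays centred on their medians and -0.51 as deposited. The corresponding medians of AT1G68660 were 2.18, 2.34 and 2.71.

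**Figure D2:**
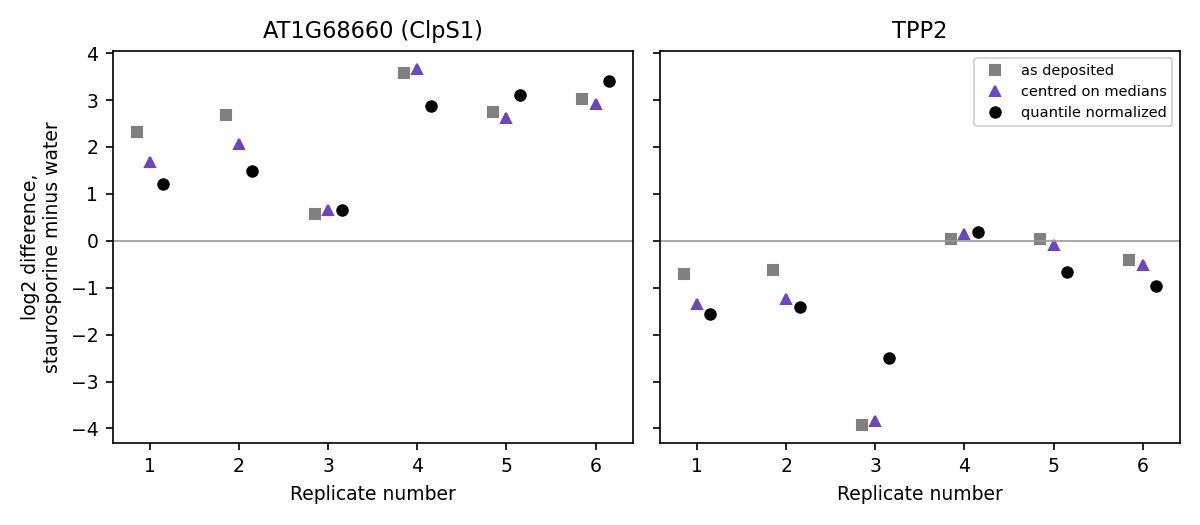
Difference in log2 intensity, staurosporine minus water, between same-numbered arrays for AT1G68660 and TPP2, as deposited, with arrays centred on their medians and after quantile normalization. All points of AT1G68660 lie above 0; TPP2 lies at or near 0 at number 4 on every scale, and at number 5 on the deposited and centred scales.

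Staurosporine replicate 3 held the lowest TPP2 value. Without that array the log2 change of TPP2 was -0.90 after quantile normalization. Without it, the change was -0.65 with arrays centred and -0.40 as deposited, settings that were chosen after the values were seen. With all 12 arrays it was -1.15 with arrays centred and -0.93 as deposited. The change of AT1G68660 stayed between 1.92 and 2.34 without any 1 array.

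In normalized intensity, each gene varied most in the group where it was low. As deposited, this held for TPP2 only, with an SD of 0.0689 after water and 0.0957 after staurosporine. The SD of AT1G68660 as deposited was 0.0739 after water and 0.101 after staurosporine. Across the 6 arrays of a group, the highest normalized intensity of AT1G68660 was 5.25 times the lowest after water and 1.43 times after staurosporine. For TPP2 the highest was 1.74 times the lowest after water and 5.07 times after staurosporine. The SD of log2 intensity of AT1G68660 was 0.98 after water, where 2.98% of the 2584 probes above 0 on all arrays had a larger SD, and 0.19 after staurosporine, where 88.5% did. The SD of TPP2 was 0.30 after water, where 57.2% of the probes had a larger one, and 0.78 after staurosporine, where 10.4% did. These spreads lie within groups and were not used to choose the genes, but the group in which each gene was low was known beforehand. The percentages compare each gene with probes of any intensity, so the part of low intensity in these spreads was not tested.

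Within number pairs, the widest gap of each gene lay between arrays 3 and 4, in a different group for each gene. For AT1G68660, water replicates 3 and 4 differed 3.81-fold in normalized intensity, where the median probe differed 1.12-fold and 0.851% of probes differed more. For TPP2, staurosporine replicates 3 and 4 differed 5.07-fold, where the median probe differed 1.21-fold and 0.658% of probes differed more. A gap of TPP2 in the water group also stood out, between replicates 5 and 6, at 1.74-fold, with 1.63% of probes further apart. The remaining gaps of both genes within number pairs were 1.01-fold to 1.43-fold.

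**Figure D3:**
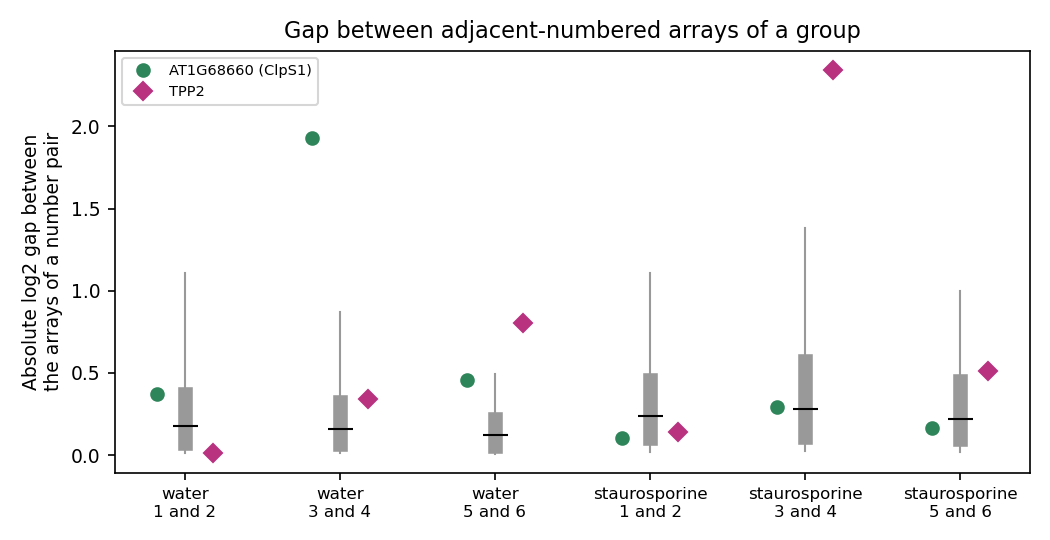
Absolute log2 gap in normalized intensity between the arrays of each number pair for AT1G68660 (circles) and TPP2 (diamonds); grey boxes and lines span the 25th to 75th and 5th to 95th percentiles of 2584 probes above 0 on all arrays, and dashes mark the median. AT1G68660 stands above the grey line for water 3 and 4, and TPP2 for staurosporine 3 and 4 and for water 5 and 6.

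Other genes of protein breakdown were few on the array. Of 162 genes on 9 lists of proteolysis, plastid chaperones and the ClpS1 substrate glutamyl-tRNA reductase, 7 had a single-gene probe. None of the 7 passed an adjusted p of 0.05 in limma (none higher, none lower), where 25.3% of all 3330 tested probes passed, 12% as higher and 13.2% as lower. At an unadjusted p under 0.05, 1 of the 7 passed, HEMA3, against 37.1% of all tested probes. The median log2 change of the 7 was -0.27, against 0.00 over all tested probes. The 7 include SPPA and RPN11, above 0 on only 5 and 2 arrays, whose changes depend on the floor. The lists of aminopeptidases, other subtilases, N-degron enzymes, vacuolar and aspartic proteases, and plastid chaperones had no single-gene probe.

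In the Clp system, 2 of 19 listed genes had a single-gene probe. CLPF (AT2G03390), the partner of ClpS1, had a normalized intensity of 0.723 to 0.887 after water (median 0.764) and of 0.420 to 0.895 after staurosporine (median 0.683). The groups overlapped, and the log2 change was -0.27 ± 0.18 (limma adjusted p 0.306). CLPX2 (AT5G49840), a ClpX chaperone of mitochondria, ran from 0.495 to 0.773 after water (median 0.574) and from 0.435 to 0.635 after staurosporine (median 0.506). Its groups overlapped too, with a log2 change of -0.21 ± 0.15 (limma adjusted p 0.317). Neither of these 2 Clp genes passed the test.

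Of the list genes without a probe of their own, some shared a probe. Of 9 probes that carry several genes including a list gene, 1 passed as lower, none passed as higher and 8 did not pass. Of all tested probes, 13.2% passed as lower and 12% as higher. Probe 2556, among the 8, was above 0 on only 1 array. The 1 that passed, probe 4384, carries 2 genes, both on the Clp list, and is given here because it passed. Its normalized intensity ran from 0.930 to 1.44 after water (median 1.04) and from 0.471 to 0.796 after staurosporine (median 0.564). The groups did not overlap, as in 14.9% of all tested probes, either direction counted. Its log2 change was -0.90 ± 0.17 (limma adjusted p 0.00287), and the adjusted p was 0.0931 with number pairs averaged, a setting in which 1.71% of all tested probes passed. Probe 3431, with the same count of Clp list genes, had a log2 change of -0.98 ± 0.37 (limma adjusted p 0.0716).

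Among organelle proteases outside the Clp system, 3 of 37 genes had a single-gene probe. FTSHI3 (AT3G02450), an FtsH-like protein of the chloroplast envelope that lacks the protease site, had a log2 change of 1.10 ± 0.66 (limma adjusted p 0.256) and was listed at 0 on 1 water array. When numbers 3 and 4 were left out in both groups, the log2 change was 2.20 (limma adjusted p 0.0172), but it was 0.39 (0.768) without numbers 1 and 2 and 0.52 (0.815) without numbers 5 and 6. CGEP (AT2G47390), a glutamyl endopeptidase of the chloroplast stroma, had a normalized intensity of 0.382 ± 0.0773 (SD, n = 6) after water and 0.340 ± 0.120 after staurosporine, and its log2 change was -0.21 ± 0.22 (limma adjusted p 0.520), or 0.02 without further normalization. SPPA (AT1G73990), a thylakoid protease, was listed at 0 on 3 water and 4 staurosporine arrays, and RPN11 (AT5G23540), the deubiquitinase of the proteasome lid, on 4 water and all 6 staurosporine arrays, so that no fold is given for either.

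HEMA3 (AT2G31250) encodes a glutamyl-tRNA reductase, the enzyme family that ClpS1 recognises. It ran from 1.05 to 1.76 after water (median 1.20) and from 0.403 to 1.23 after staurosporine (median 0.997), with lower values after staurosporine in 5 of 6 same-numbered pairs. The groups overlapped. Its log2 change was -0.67 ± 0.28 (limma adjusted p 0.100), and the adjusted p was 0.0417 with arrays centred on their medians, 0.0602 when staurosporine replicate 3 was then left out, and 0.369 with number pairs averaged. Without numbers 5 and 6 the log2 change was -0.10 (limma adjusted p 0.662).

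**Figure D4:**
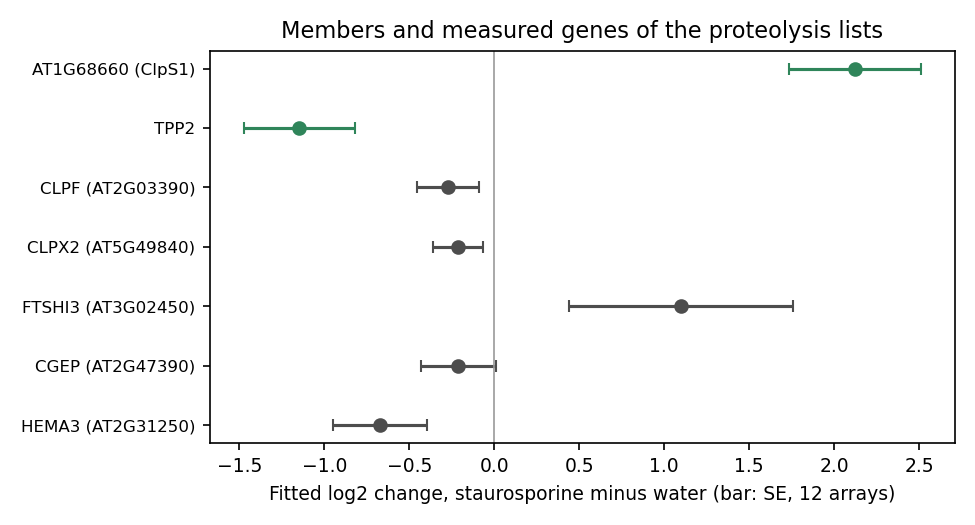
Fitted log2 change, staurosporine minus water, with its SE over 12 arrays, for AT1G68660 and TPP2 (green) and for the 5 list genes above 0 on at least 11 arrays (grey). AT1G68660 lies at 2.12 and TPP2 at -1.15; none of the grey genes passed an adjusted p of 0.05.

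Of the 3 measured leaf markers, 2 passed as lower in the fit over 12 arrays and 1 did not pass. Of all tested probes, 13.2% passed as lower and 25.3% in either direction. PSAN, a subunit of photosystem I, fell from 1.76 ± 0.263 to 0.524 ± 0.0228 (SD, n = 6) with a limma adjusted p of 1.95e-06, and LHB1B2, a light-harvesting protein of photosystem II, fell from 2.11 ± 0.514 to 1.31 ± 0.0930 with 0.0102. For PRK, a Calvin cycle kinase, the log2 change was -0.31 ± 0.22 (0.355). With number pairs averaged the adjusted p was 0.0240 for PSAN and 0.181 for LHB1B2, so that PSAN alone of the 3 passed there, where 1.71% of all tested probes did. The part of these genes in the values of AT1G68660 and TPP2 was not tested.

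Likeness of pattern was described over the 12 arrays by the Pearson correlation of log2 normalized intensity with the other 525 single-gene probes above 0 on all arrays. These arrays share number pairs and the group difference, so the coefficients are given without a p. The genes most like AT1G68660 were AT1G51350 (0.92), AT4G24930 (0.92), which encodes a protein of the thylakoid lumen, AT3G07790 (0.92), AT3G52070 (0.91) and AT5G03370 (0.90). All 5 had higher mean levels after staurosporine, which the measure itself favours. When deviations from the group means were used in place of the values, AT1G51350 (0.73) and AT5G03370 (0.71) were again among the 5 most alike, and the other 3 were not.

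The genes most like TPP2 were AT3G47650 (0.86), which encodes BSD2, a chaperone of Rubisco assembly, AT4G22650 (0.83), PRA1.B6 (0.83), a prenylated RAB acceptor, AT3G22150 (0.81) and AT1G30700 (0.78), a berberine bridge enzyme-like protein. All 5 had lower mean levels after staurosporine, which the measure itself favours here too. On deviations from the group means, AT3G47650 (0.74) was the only one of them among the 5 most alike. The correlation between AT1G68660 and TPP2 was -0.54 over log2 values and 0.24 over deviations from the group means, both over 12 arrays.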

How the data were processed

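The values analysed are linear intensities as deposited, 1 for each probe on each array; how they were background-corrected or scaled before is not given in the sources used. Groups and replicate numbers were taken from the sample titles. The 2 genes, the lists, tests and settings were chosen with earlier results of these data known. Probes were named through the platform annotation, with symbols updated through the gene table of TAIR10.1 (690 of 692 single-gene probes matched); 870 probes carry several genes and 1877 none. Genome positions are left out, since the files name no build. A search of symbols and synonyms for words of proteolysis, in place of product names, found 1 more probe, SPPA, already listed.

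Intensities were quantile normalized. Values at 0 or under a common floor (the 1st percentile of positive normalized values, 0.0202) were set to it, and log2 was taken; neither gene reached the floor. Probes at 0 on all 12 arrays (109) were left out, leaving 3330. limma 3.58.1 in R 4.3.3 (lmFit, eBayes, no block) was fitted over all of them, 2-sided, with Benjamini-Hochberg adjustment. The fit was tried on simulated data in which all arrays were independent. The likeness of arrays within number pairs was not simulated, so that trial cannot show how often calls over 12 arrays are wrong here. Same-numbered arrays deviated together from their group means (correlations 0.159 to 0.275 over probes above 0 on all arrays). No such correlation is given for differently numbered arrays of the 2 groups, so pairing by number is not shown. Same-numbered arrays were treated as paired in 1 alternative fit (replicate block). Other alternatives changed the normalization, floor, filter and arrays. Named genes are the 2 genes, the list genes with a single-gene probe and the 5 most alike genes of each. The number of arrays limits the precision.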

Additional observations from a re-analysis of the deposited data

Results flagged for a closer look

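For AT1G68660, water replicate 3 had a deposited intensity of 0.249, far from the other water arrays, of which the nearest was at 0.104; it was still below every staurosporine array, and after quantile normalization it no longer stood apart. For SPPA, staurosporine replicate 1 had a normalized intensity of 0.0379 (-4.72 on the log2 scale), with the nearest array at 0.00648 and 4 of 6 at 0, so this is a difference among values near the floor. These are 3 of 51 checks of 1 group on 1 scale, where chance gives about 1 in 20 for independent checks. The same SPPA array was flagged on both scales, so the checks are not independent. On the log2 scale the other SPPA arrays of that group all lay at the floor, which by itself produced the flag.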

How the results depend on the processing

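Both genes kept their sign in every setting run. The log2 change of AT1G68660 was 2.48 without further normalization, 2.26 with arrays centred and 1.51 with an offset (0.0757) in place of a floor, and 1.83 without numbers 5 and 6 of both groups. For TPP2 these were -0.93, -1.15, -0.78 and -1.65. Without any 1 array AT1G68660 ran from 1.92 to 2.34 and TPP2 from -1.35 to -0.90. In the paired fit, with a replicate block, 919 probes passed, against 841 in the fit over 12 arrays, and the block changed no call of a list gene. The count was 57 with number pairs averaged, 398 when number pairs entered as a random block, 456 without numbers 5 and 6 of both groups and 673 to 811 without any 1 array. Of the calls, 47.7% were higher, against 39.0% with arrays centred on their medians and 59.5% without further normalization; in the latter the median over all tested probes shifted to a log2 change of 0.17 from 0.00. Of the 7 list genes, 1 passed with arrays centred (HEMA3) and 1 without numbers 3 and 4 (FTSHI3); in the other settings, leaving out any 1 array included, 0 passed. Probe 3431 passed without numbers 3 and 4 (adjusted p 0.0325), without staurosporine replicate 4 (0.0379) and over probes above 0 on all arrays (0.0428). The background correction of the intensities is unknown, and dim values such as TPP2 in staurosporine replicate 3 are the least certain.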
